A study of Mus musculus with 8 samples.

Results

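Immunoglobulin variable (V) segments were taken as the genes whose mouse symbol starts with Ighv (heavy chain), Igkv (kappa light chain) or Iglv (lambda light chain) and whose mean normalized count over 8 colon libraries was at least 10. The rule kept 141 of 173 V segment rows among the 26008 genes of the table, that is 71 of 91 Ighv, 68 of 80 Igkv and 2 of 2 Iglv segments, and these members held 98.8% of the normalized counts of all V segment rows. The mean was taken over both genotypes together, so that the difference between genotypes was not used to choose the members. The libraries came from biopsies of the colon of C57BL/6JRj male mice that had been lethally irradiated at 7 weeks of age and engrafted with bone marrow of 9 to 11 week old male mice, either Penk-/- (4 mice) or Penk+/+ (4 mice), and examined 18 weeks after engraftment. Penk encodes proenkephalin, the precursor of enkephalin opioid peptides, and the Penk-/- donors (strain B6.129-Penk-rstm1Pig/J) carry the deletion in every cell, whereas the recipients of both groups were wild type. The deletion therefore concerned the cells derived from the graft, including B cells and plasma cells, and not the recipients' epithelium, muscle or neurons of the colon. Any hematopoietic cells that the recipients still had were not measured in these libraries. Each mouse gave 1 library and was a separate animal.

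An antibody chain gets its variable domain from 1 V segment, which a developing B cell joins to a J segment (and, for the heavy chain, a D segment) by cutting DNA at recombination signals. A B cell and all its descendants keep the same joined V segment, so that the V segment mRNA of a tissue is the sum over the clones it holds. In the colon, most of this mRNA is made by plasma cells of the lamina propria, which mainly secrete IgA, built with the heavy chain constant gene Igha and carried into the lumen by the receptor Pigr. In whole biopsies, fewer plasma cells and less immunoglobulin mRNA per plasma cell cannot be told apart.

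In the GRCm39 genome, the Ighv rows lay on chr12 between 113542124 and 115964081, all on the minus strand, the Igkv rows on chr6 between 67586697 and 70681161 on both strands, and the Iglv pair on chr16 between 18903767 and 19079609 on the minus strand. Each segment has a leader exon, an intron and a V exon (median length 305 bases over the 141 members), and the recombination signal follows the V exon directly. The sequences below show the germline DNA of the segments that were the most used of their locus in at least 1 mouse, with Iglv2 beside Iglv1, from the last 15 bases of the V exon to the end of the recombination signal. Capitals mark the heptamer and the nonamer of the signal, read 5′ to 3′ on the coding strand, with a spacer of 23 bases for Ighv and Iglv and 12 bases for Igkv.
Ighv1-22, chr12:114709854-114709907, strand -: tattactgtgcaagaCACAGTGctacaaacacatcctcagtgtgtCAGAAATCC
Ighv1-26, chr12:114751953-114752006, strand -: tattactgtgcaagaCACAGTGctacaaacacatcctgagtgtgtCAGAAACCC
Ighv1-39, chr12:114878180-114878233, strand -: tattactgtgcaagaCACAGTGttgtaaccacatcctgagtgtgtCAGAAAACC
Ighv1-53, chr12:115121984-115122037, strand -: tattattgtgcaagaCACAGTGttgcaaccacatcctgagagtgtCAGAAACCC
Ighv1-58, chr12:115275747-115275800, strand -: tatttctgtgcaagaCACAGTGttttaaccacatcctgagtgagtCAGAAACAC
Ighv1-82, chr12:115916119-115916172, strand -: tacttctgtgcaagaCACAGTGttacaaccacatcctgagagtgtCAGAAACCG
Igkv1-110, chr6:68248237-68248279, strand +: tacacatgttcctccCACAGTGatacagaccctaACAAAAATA
Igkv1-117, chr6:68098797-68098839, strand +: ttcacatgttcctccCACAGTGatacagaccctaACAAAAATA
Igkv6-23, chr6:70237365-70237407, strand -: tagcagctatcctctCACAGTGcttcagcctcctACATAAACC
Igkv10-96, chr6:68608919-68608961, strand -: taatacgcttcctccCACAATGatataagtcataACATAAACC
Iglv1, chr16:18903728-18903781, strand -: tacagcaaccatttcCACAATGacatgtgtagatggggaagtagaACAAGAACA
Iglv2, chr16:19079112-19079165, strand -: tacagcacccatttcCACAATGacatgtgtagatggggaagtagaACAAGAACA

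The heptamer with the letters CACAGTG, searched directly after the V exon on the coding strand with an offset of 0 to 4 bases, was complete in 120 of 141 members (85.1%) and in 169 of the 216 annotated V segments (78.2%). All 6 leading Ighv segments had it, as did Igkv1-110, Igkv1-117 and Igkv6-23, whereas Igkv10-96, Iglv1 and Iglv2 had CACAATG. For the nonamer, the most common base at each position gave cagaaaacc after the 23-base spacer of Ighv and acaaaaacc after the 12-base spacer of Igkv. At least 7 of these 9 letters were present in 43 of 71 Ighv members (60.6%) and in 67 of 68 Igkv members (98.5%). The spacer was fixed and the letters came from the annotated segments themselves, so that these counts do not compare Ighv with Igkv. A match of letters describes the germline sequence and is no measure of use.

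Igkv1-110 and Igkv1-117 were both among the 10 most used kappa segments of all 8 mice, and their V exons are the most alike of the leading kappa segments. Over 313 bases they were 96.8% identical, with 10 substitutions and no gap. The last 280 bases of both V exons are shown here, on the plus strand of chr6, with the 9 differing positions in capitals.
Igkv1-110, chr6:68247972-68248251: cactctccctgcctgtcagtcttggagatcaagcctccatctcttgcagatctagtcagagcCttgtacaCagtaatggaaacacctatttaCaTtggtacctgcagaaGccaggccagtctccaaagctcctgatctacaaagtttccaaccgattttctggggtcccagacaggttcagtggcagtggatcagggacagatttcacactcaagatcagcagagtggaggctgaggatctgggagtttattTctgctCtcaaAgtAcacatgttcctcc
Igkv1-117, chr6:68098532-68098811: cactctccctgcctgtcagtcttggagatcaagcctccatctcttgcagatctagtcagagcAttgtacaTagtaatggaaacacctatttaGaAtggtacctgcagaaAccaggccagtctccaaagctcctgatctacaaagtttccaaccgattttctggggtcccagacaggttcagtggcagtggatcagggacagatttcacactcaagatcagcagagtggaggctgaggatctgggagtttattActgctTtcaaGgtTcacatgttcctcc

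How far reads of one segment can be counted on another depends on such likeness. Each member was compared with the annotated V exons of its locus that differed by at most 15 bases in length and shared at least 40 words of 12 bases with it. Such an exon was found for 134 of 141 members, the closest one having a median identity of 94.9%, and 7 members had none. For 21 of 141 members (16 Ighv and 5 Igkv) the closest V exon was at least 97% identical, among them Ighv1-26 (97.4% to Ighv1-18) and Ighv1-50 (97.05% to Ighv1-69). Closer still were Ighv1-72 (99.02% to Ighv1-62-3) and Igkv5-43 (98.99% to Igkv5-45). How many of their reads belong to these neighbours was not tested. Ighv1-71 and Ighv1-62-2 had identical V exons, and the reads counted on either are uncertain. Plasma cells also carry somatic mutations in the V exon, so that a segment's count is the number of reads the aligner could place on the germline segment.

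The libraries held 33122556 to 50677005 reads on genes, and each value is a read count divided by a size factor of its library. Members took 0.00973 to 0.0651% of the normalized counts, that is 3224 to 25807 reads per library. Penk was measured in all libraries, at 453, 512, 616 and 531 normalized counts in Penk-/- mice 1 to 4 and 473, 496, 560.1 and 636 in Penk+/+ mice 1 to 4. The groups overlapped, and the difference was within the spread (log2 fold change -0.0345, standard error 0.12, unadjusted p = 0.784, adjusted p = 0.957 with limma), so that whole-colon Penk did not check the donor genotype. Epithelium (8 of 8 markers) and smooth muscle (6 of 6) were present in every library, as the tissue label says. The summed level of 3 prostate and accessory gland genes (Pbsn, Tgm4 and Msmb, 3 of 3 tested) ranged from 93.9 to 209860 normalized counts in the Penk-/- and from 54.2 to 217830 in the Penk+/+ group, and was highest in Penk-/- mouse 3 and Penk+/+ mouse 4. Pbsn was at 0 in Penk-/- mouse 1 and Penk+/+ mouse 3. The part of this tissue in the results was not tested, and the tests of single values and the count of segments are given without both libraries in the closing section.

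The question of the first comparison was whether the amount of V segment mRNA differed between the chimeras. The summed Ighv level was 9825, 1502, 2486 and 4031 normalized counts in Penk-/- mice 1 to 4 and 4736, 6688, 2218 and 8867 in Penk+/+ mice 1 to 4. The groups overlapped fully, and Penk-/- mouse 1 and Penk-/- mouse 2 were the highest and the lowest of all 8. Summed Igkv was 14759, 1959.9, 3170.5 and 5159 normalized counts in Penk-/- mice 1 to 4 and 6544, 8721, 3124 and 9395 in Penk+/+ mice 1 to 4, in the same order of mice within each genotype. Between the highest and the lowest mouse the sums differed 6.54-fold for Ighv, 7.53-fold for Igkv and 7.04-fold for Iglv. On the log2 scale, Ighv was 11.8 ± 1.15 (SD, n = 4) in Penk-/- and 12.3 ± 0.864 in Penk+/+ mice, a difference of -0.52 (exact permutation test, two-sided, p = 0.486). The differences were -0.46 for Igkv (exact p = 0.543), -0.23 for Iglv (exact p = 0.8) and -0.47 for all members (exact p = 0.543), all smaller than the spread between mice. Single mice moved these differences, which ran with 1 mouse left out from -1.02 to -0.11 for Ighv, from -1.01 to -0.0391 for Igkv and from -1.004 to -0.0642 for all members (nearest 0 without Penk-/- mouse 2, farthest without Penk-/- mouse 1). Adjusted over the 11 single values tested in this report, none of these p fell below 0.663.

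**Figure D1:**
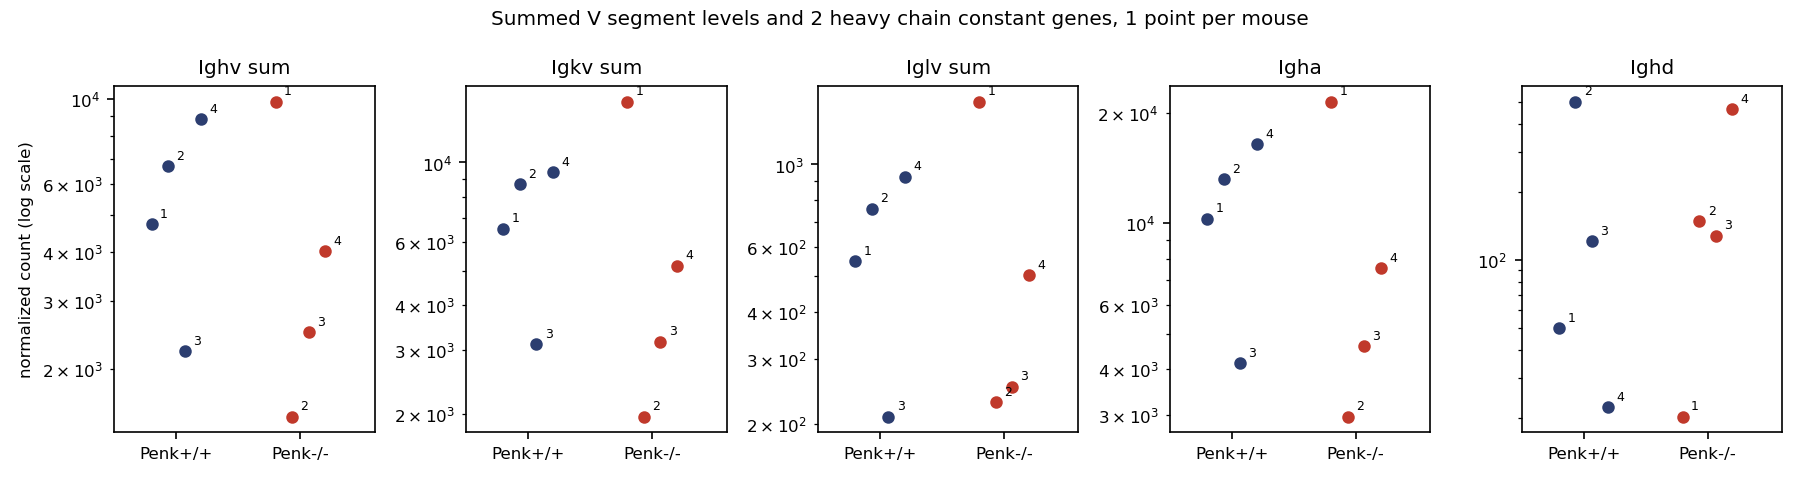
Summed normalized counts of the Ighv, Igkv and Iglv members and the normalized counts of Igha and Ighd (log scales), 1 point per mouse with its replicate number, Penk+/+ in blue and Penk-/- in red. The 3 V sums and Igha place the mice of a genotype in the same order, with Penk-/- mouse 1 highest, whereas Ighd is lowest in that mouse.

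The V sums followed the constant gene of IgA. Igha was at 21422, 2968, 4627 and 7555 normalized counts in Penk-/- mice 1 to 4 and 10293, 13200, 4152 and 16399 in Penk+/+ mice 1 to 4, and the Ighv sum was 0.459 to 0.541 times the Igha value in all 8 mice. Over the 8 mice, log2 of the summed V level and log2 of Igha had a Pearson r of 0.998 (permutation p = 2.48e-05, the smallest these permutations can give) and a Spearman rho of 1 (permutation p = 4.96e-05), and r was 0.998 without Penk-/- mice 1 and 2, the farthest from the median. Heavy chain V segments and Igha lie on the same mRNA in IgA plasma cells, so that both measures share molecules as well as libraries. With the mean of 9 plasma cell genes (among them Jchain, the joining chain of IgA and IgM, and the transcription factor Xbp1), r was 0.941 (permutation p = 0.000446), rho was 0.952 (permutation p = 0.00114), and r was 0.931 without Penk-/- mouse 2 and Penk+/+ mouse 3. With the mean of 12 B cell genes (among them Pax5, which plasma cells switch off), r was -0.389 (permutation p = 0.330) and rho -0.429 (permutation p = 0.299), and without Penk-/- mouse 1 and Penk+/+ mouse 4 r was 0.252. The 3 relations gave p for r adjusted together of 0.0000744, 0.0006696 and 0.330, and for rho of 0.000149, 0.00171 and 0.299, in this order. Within the 4 Penk-/- and the 4 Penk+/+ mice, r with Igha was 0.9997 and 0.998, and r with the plasma cell genes was 0.969 and 0.988.

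V segments are grouped in families by sequence, the number before the hyphen. Among heavy chain families, Ighv1, the large family of distal and middle segments, took on average 60.05% (range 56.6 to 70.04%, 38 members) of the Ighv level over the 8 mice. Ighv6 followed with 7.14% (range 4.64 to 9.41%, 2 members), Ighv5 with 6.64% (range 2.396 to 9.18%, 7 members) and Ighv9 with 4.92% (range 1.01 to 12.2%, 3 members). The kappa level was more evenly divided, with 22.4% (range 12.6 to 36.3%, 6 members) for Igkv1, 11.9% (range 7.53 to 14.5%, 17 members) for Igkv4, 10.6% (range 6.45 to 20.2%, 8 members) for Igkv6 and 10.1% (range 6.37 to 15.5%, 2 members) for Igkv10. Of the 27 families with a mean share of at least 1% (11 Ighv and 16 Igkv), 0 differed between genotypes at an unadjusted exact p below 0.05. The smallest was Ighv10, with 5.59, 3.73, 3.07 and 3.23% in Penk-/- mice 1 to 4 and 2.26, 3.33, 2.903 and 1.59 in Penk+/+ mice 1 to 4 (exact permutation test, two-sided, p = 0.0857, adjusted over the 27 families 0.912). The single highest family shares belonged to single mice, such as 70.04% Ighv1 in Penk+/+ mouse 1, 36.3% Igkv1 in Penk-/- mouse 1 and 13.3% Igkv9 in Penk+/+ mouse 3.

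By position, the 91 Ighv rows were divided in 3 blocks along chr12. The block next to the D segments (30 rows, 24 members) took 24.1% of the Ighv level on average over the 8 mice, the middle block (30 rows, 22 members) 39.5% and the distal block (31 rows, 25 members) 36.4%. The ranges over mice were 19.2 to 28.6%, 30.2 to 43.3% and 32.3 to 42.3%, and D-proximal segments took the lowest share in every mouse. Kappa segments lie in either orientation, and the 43 members in inverted orientation relative to Igkc took 58.2% of the Igkv level (45.6 to 71.2%). Neither the blocks nor orientation set the genotypes apart (exact permutation tests, two-sided, p = 0.629, 0.8, 0.514 and 0.743, in the order above, not adjusted). These position classes were added after the values were seen.

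Ighv1-26 (chr12:114751992-114752425, minus strand) had the highest mean of the heavy chain segments and led in Penk-/- mice 2, 3 and 4. It was at 673, 125, 134 and 424 normalized counts in Penk-/- mice 1 to 4 and 375, 355, 59.3 and 488 in Penk+/+ mice 1 to 4, that is 6.84, 8.31, 5.41 and 10.5% in Penk-/- mice 1 to 4 and 7.91, 5.303, 2.67 and 5.502 in Penk+/+ mice 1 to 4. Its share was above 2.5% of the Ighv level in every mouse and did not stand out in either genotype. The other leading heavy chain segments each led in 1 mouse. Ighv1-82 (chr12:115916158-115916625) reached 10.5% (95% Wilson interval 9.91 to 11.1%, 1022 of 9730 reads) in Penk-/- mouse 1, with 1032, 30.9, 111 and 223 normalized counts in Penk-/- mice 1 to 4 and 63.5, 262, 30.7 and 93.5 in Penk+/+ mice 1 to 4. Ighv1-39 (chr12:114878219-114878652) took 11.6% (95% Wilson interval 10.6 to 12.7%, 442 of 3805 reads) in Penk+/+ mouse 1, where it had 550 normalized counts, against 0 to 73.7 in the other 7 mice. In Penk+/+ mouse 4, Ighv1-58 (chr12:115275786-115276219) took 9.15% (95% Wilson interval 8.61 to 9.72%, 946 of 10341 reads), with 811 normalized counts against 5.05 to 71.5 elsewhere. Ighv1-39 and Ighv1-58 were thus each far higher in 1 mouse than elsewhere. Ighv1-82 was less confined, with 4.47% in Penk-/- mouse 3, 5.54% in Penk-/- mouse 4 and 3.92% in Penk+/+ mouse 2. Ighv1-53 (chr12:115122023-115122455) led in Penk+/+ mouse 3 with 12.3% (95% Wilson interval 11.03 to 13.8%, 268 of 2170 reads), and Ighv1-22 (chr12:114709893-114710326) in Penk+/+ mouse 2 with 7.68% (95% Wilson interval 7.08 to 8.32%, 540 of 7034 reads). Among the 10 members with the highest mean, the remaining heavy chain segment was Ighv6-3, at 584, 91.6, 51.6 and 282 normalized counts in Penk-/- mice 1 to 4 and 204, 285, 138 and 234 in Penk+/+ mice 1 to 4. It was read in all mice and was second in Penk-/- mice 2 and 4 and Penk+/+ mouse 3. The Wilson intervals cover counting error only, since reads of these libraries are not counted by molecular identifiers.

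Among kappa segments, 3 were in the 10 most used of all 8 mice, namely Igkv1-110, Igkv1-117 and Igkv10-96, whereas no heavy chain segment was. Igkv1-117 (chr6:68098030-68098811, plus strand) had the highest mean of the 141 members and was at 3883, 219, 432 and 219 normalized counts in Penk-/- mice 1 to 4 and 492, 630.4, 198 and 454 in Penk+/+ mice 1 to 4. In Penk-/- mouse 1 this was 26.3% (95% Wilson interval 25.6 to 27.03%, 3845 of 14616 reads) of the kappa reads, and 59.5% of the segment's summed counts over the 8 mice came from this mouse. It also led in Penk-/- mouse 3 with 13.6% (95% Wilson interval 12.7 to 14.7%, 595 of 4362 reads), and its median share in the 7 mice other than Penk-/- mouse 1 was 7.23%. Igkv1-110 (chr6:68247469-68248251, plus strand), whose sequence is set against it above, was at 1030, 237, 225 and 365 normalized counts in Penk-/- mice 1 to 4 and 426, 828, 457 and 464 in Penk+/+ mice 1 to 4 and led in Penk-/- mouse 2 and Penk+/+ mice 2 and 3. Its share lay between 4.94 and 14.6% and its coefficient of variation of 56.2% over the 8 mice was among the 5 lowest of the members. Igkv10-96 (chr6:68608947-68609426, minus strand) led in Penk-/- mouse 4 with 12.4% (95% Wilson interval 11.5 to 13.4%, 578 of 4669 reads) and in Penk+/+ mouse 4 with 10.5% (95% Wilson interval 9.94 to 11.1%, 1151 of 10957 reads). Igkv6-23 (chr6:70237393-70237939, minus strand) led in Penk+/+ mouse 1 with 11.8% (95% Wilson interval 10.9 to 12.7%, 618 of 5258 reads). Igkv5-43 and Igkv10-94 completed the 10 highest means with 314 and 208 normalized counts, and both were highest in Penk-/- mouse 1.

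Each mouse had its own order of segments, given here by the 3 most used of each chain, a choice made after the values were seen. Penk-/- mouse 1 used Ighv1-82 (10.5%), Ighv1-26 (6.84%) and Ighv6-3 (5.94%) among heavy chain and Igkv1-117 (26.3%), Igkv1-110 (6.98%) and Igkv5-43 (6.67%) among kappa segments. In Penk-/- mouse 2 the heavy chain order was Ighv1-26 (8.31%), Ighv6-3 (6.098%) and Ighv1-76 (5.56%), and the kappa order Igkv1-110 (12.1%), Igkv1-117 (11.2%) and Igkv6-15 (8.06%). Penk-/- mice 1 and 2 thus shared Ighv1-26, Ighv6-3, Igkv1-110 and Igkv1-117. For Penk-/- mouse 3, heavy chain use was led by Ighv1-26 (5.41%), Ighv5-17 (4.59%) and Ighv1-82 (4.47%), and kappa use by Igkv1-117 (13.6%), Igkv1-110 (7.08%) and Igkv10-96 (6.17%). Penk-/- mouse 4 had Ighv1-26 (10.5%), Ighv6-3 (6.99%) and Ighv1-82 (5.54%) with Igkv10-96 (12.4%), Igkv1-110 (7.07%) and Igkv5-43 (4.43%). Ighv1-26 was among the first 3 in all 4 Penk-/- mice and in 2 of 4 Penk+/+ mice. Penk+/+ mouse 1 used Ighv1-39 (11.6%), Ighv1-26 (7.91%) and Ighv1-78 (6.33%) and, for kappa, Igkv6-23 (11.8%), Igkv1-117 (7.51%) and Igkv5-43 (6.62%). In Penk+/+ mouse 2, Ighv1-22 (7.68%), Ighv1-26 (5.303%) and Ighv1-81 (5.004%) led the heavy chain and Igkv1-110 (9.496%), Igkv10-96 (8.101%) and Igkv1-133 (8.003%) the kappa chain. The order in Penk+/+ mouse 3 was Ighv1-53 (12.3%), Ighv6-3 (6.22%) and Ighv1-85 (4.93%), followed for kappa by Igkv1-110 (14.6%), Igkv9-124 (8.31%) and Igkv1-117 (6.35%). Penk+/+ mouse 4 had Ighv1-58 (9.15%), Ighv9-4 (8.35%) and Ighv1-9 (7.68%) and Igkv10-96 (10.5%), Igkv8-30 (8.104%) and Igkv15-103 (5.26%). The 4 leading heavy chain segments of the Penk+/+ mice were all different. The 10 most used segments together took 36.8 (Penk-/- mouse 3) to 55.7% (Penk+/+ mouse 1) of the Ighv and 49.05 (Penk-/- mouse 4) to 62.9% (Penk-/- mouse 1) of the Igkv level.

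A smaller set of segments was used by every mouse. At least 1% of the locus in all 8 mice was reached by 11 Ighv and 7 Igkv members. Besides Ighv1-26, Ighv6-3, Ighv1-82 and Ighv1-53, the heavy chain segments were Ighv1-81 (1.06 to 5.004%), Ighv1-72 (1.24 to 4.99%), Ighv1-78 (1.38 to 6.33%), Ighv1-64 (1.33 to 5.26%), Ighv9-3 (1.01 to 3.28%), Ighv3-6 (1.01 to 4.74%) and Ighv6-6 (1.15 to 3.68%). The kappa segments were Igkv1-117, Igkv1-110, Igkv10-96, Igkv5-43 (2.22 to 6.67%), Igkv10-94 (1.73 to 3.804%), Igkv6-15 (1.26 to 8.06%) and Igkv1-135 (1.27 to 2.38%). Over the 8 mice, the lists of 10 most used segments held 28 different Ighv and 30 different Igkv segments, of which 7 and 16 were in the list of 1 mouse only. A share above 5% in any mouse was reached by 13 Ighv and 10 Igkv members.

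**Figure D2:**
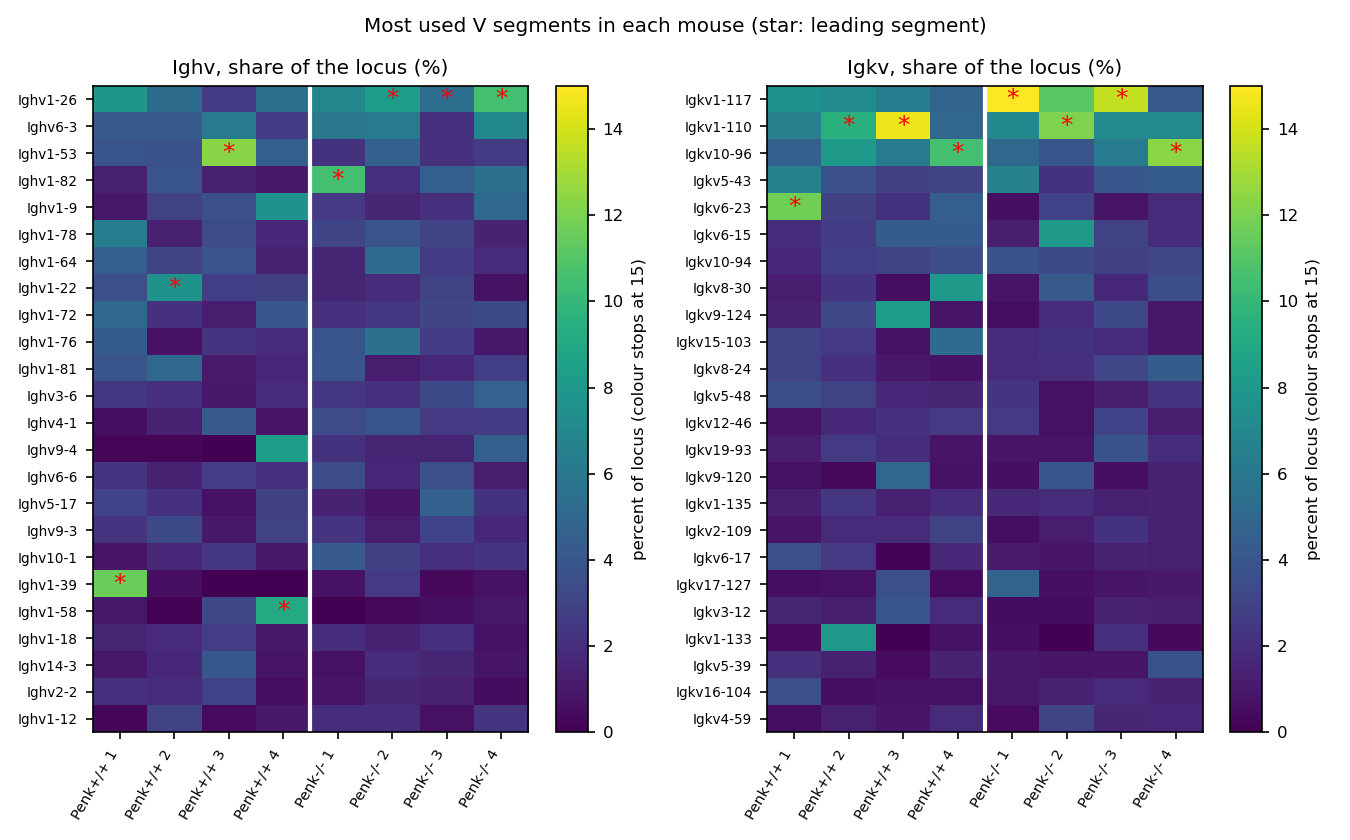
Share of the Ighv (left) and Igkv (right) level taken by the 24 segments with the highest mean share of each locus, in the 4 Penk+/+ and the 4 Penk-/- mice. Colour gives the percent of the locus and stops at 15, and a star marks the leading segment of each mouse. Heavy chain stars fall on 6 different segments and kappa stars on 4, and the one cell beyond the colour scale is Igkv1-117 in Penk-/- mouse 1 (26.3%).

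The lambda locus had 2 members. Iglv1 was at 1341, 179.7, 239 and 432 normalized counts in Penk-/- mice 1 to 4 and 339, 601, 191 and 845 in Penk+/+ mice 1 to 4, and Iglv2 at 134, 49.2, 13.1 and 70.7 normalized counts in Penk-/- mice 1 to 4 and 210.3, 159.8, 18.4 and 83.2 in Penk+/+ mice 1 to 4. Iglv1 thus took 61.7 to 94.8% of the Iglv reads, and it was lowest in Penk+/+ mouse 1, where Iglv2 was at its highest. The lambda share of light chain V segment counts was 9.09, 10.5, 7.37 and 8.88% in Penk-/- mice 1 to 4 and 7.74, 8.02, 6.28 and 8.99 in Penk+/+ mice 1 to 4. It averaged 8.95% ± 1.27 (SD, n = 4) in Penk-/- and 7.76% ± 1.12 in Penk+/+ mice, and the groups overlapped (exact permutation test, two-sided, p = 0.257). The difference of 1.19 percentage points was 0.687 without Penk-/- mouse 2 and 0.2093 when the constant genes were taken in place of the V segments. The V exons of Iglv1 and Iglv2 were 96.4% identical.

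Dominance of single segments was then compared between genotypes. The leading heavy chain segment took 10.5, 8.31, 5.41 and 10.5% in Penk-/- mice 1 to 4 and 11.6, 7.68, 12.3 and 9.15 in Penk+/+ mice 1 to 4. Means were 8.69% ± 2.42 (SD, n = 4) in Penk-/- and 10.2% ± 2.17 in Penk+/+ mice (exact permutation test, two-sided, p = 0.4). For kappa, the leading segment took 26.3, 12.1, 13.6 and 12.4% in Penk-/- mice 1 to 4 and 11.8, 9.496, 14.6 and 10.5 in Penk+/+ mice 1 to 4, with means of 16.1% ± 6.83 (SD, n = 4) in Penk-/- and 11.6% ± 2.22 in Penk+/+ mice (exact permutation test, two-sided, p = 0.229). Penk-/- mouse 1 alone stood above 15%, and the other 7 mice lay between 9.496 and 14.6%. Between 9 and 16 segments were needed to reach 50% of the Ighv level of a mouse, and between 6 and 11 for Igkv. The effective number of segments, the number of equally used segments that would give the same Shannon entropy, was 40.7, 42.4, 49.9 and 41.3 Ighv segments in Penk-/- mice 1 to 4 and 33.8, 42.8, 34.8 and 39.02 in Penk+/+ mice 1 to 4. Penk-/- mouse 3 was the most even and Penk+/+ mouse 1 the least, and the means were 43.6 ± 4.28 (SD, n = 4) in Penk-/- and 37.6 ± 4.13 in Penk+/+ mice (exact permutation test, two-sided, p = 0.114). For Igkv the effective number was 25.8, 32.4, 37.9 and 40.04 segments in Penk-/- mice 1 to 4 and 34.9, 35.2, 30.6 and 38.01 in Penk+/+ mice 1 to 4, with means of 34.01 ± 6.37 (SD, n = 4) in Penk-/- and 34.7 ± 3.04 in Penk+/+ mice (exact permutation test, two-sided, p = 0.857). With 4 mice against 4, the smallest two-sided exact p is 0.0286.

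**Figure D3:**
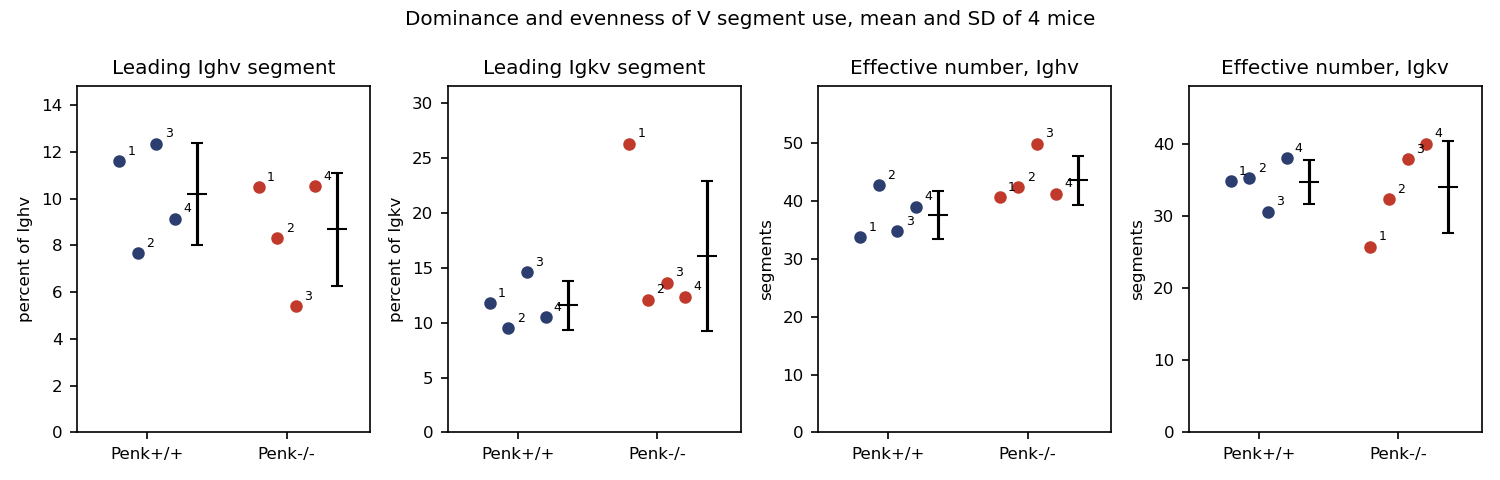
Percent of the Ighv or Igkv level taken by the leading segment and effective number of segments, 1 point per mouse with its replicate number, with the mean and SD of 4 mice beside. The genotypes overlap in all 4 panels. Penk-/- mouse 1 stands apart in the leading kappa share (26.3%) and has the lowest effective number of Igkv segments (25.8).

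How much mice of a genotype shared their segment use was measured with the Bray-Curtis distance between share profiles, which is 0 for identical and 1 for disjoint use. For Ighv, the 6 pairs of Penk-/- mice were 0.299 to 0.333 apart (mean 0.315) and the 6 pairs of Penk+/+ mice 0.392 to 0.483 (mean 0.441), so that every Penk-/- pair was closer than every Penk+/+ pair. The difference of the means, -0.126, had the smallest exact p the design allows (exact permutation test over the mice, two-sided, p = 0.0286), and did not pass when adjusted over the 11 single values (adjusted p = 0.314). The 16 pairs of 1 mouse of each genotype lay between 0.330 and 0.459 (mean 0.398), a range that overlapped both kinds of pairs. Each Penk+/+ mouse was on average 0.427 to 0.475 from the other 3, Penk+/+ mouse 3 the farthest, and each Penk-/- mouse 0.303 to 0.322. The exact p was 0.0571 without Penk+/+ mouse 3, and without the 2 libraries with the most accessory gland RNA the difference was -0.142 (exact p = 0.1, the smallest for 3 against 3). For Igkv, distances overlapped, with 0.303 to 0.396 among Penk-/- pairs (mean 0.350), 0.335 to 0.464 among Penk+/+ pairs (mean 0.387) and 0.278 to 0.453 between genotypes (exact permutation test, two-sided, p = 0.486). The depth behind these shares differed, from 1312 Ighv reads in Penk-/- mouse 2 to 10341 in Penk+/+ mouse 4.

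**Figure D4:**
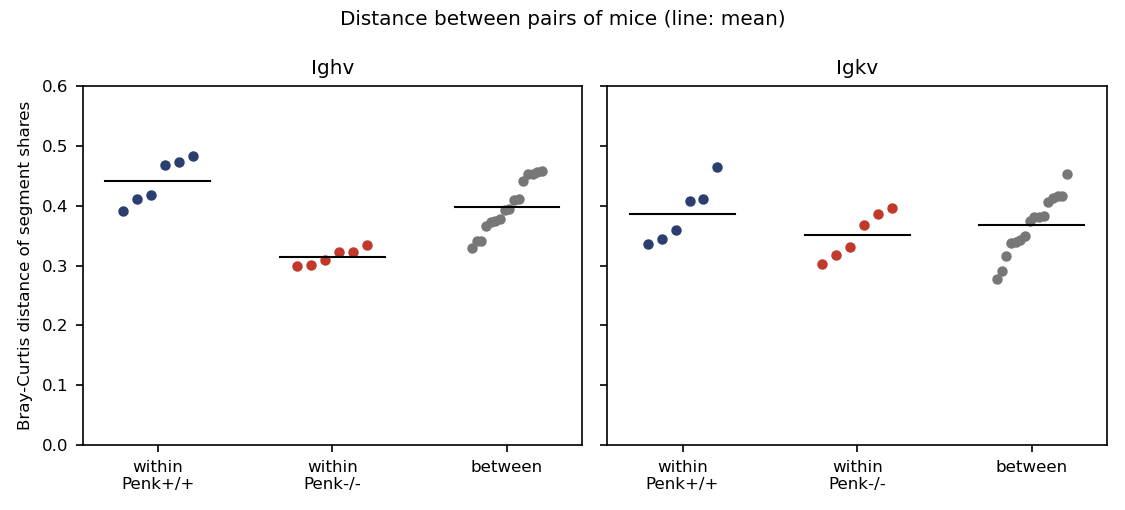
Bray-Curtis distance of Ighv (left) and Igkv (right) segment shares for each pair of mice, within Penk+/+, within Penk-/- and between genotypes, with a line at the mean. Heavy chain distances within Penk-/- (at most 0.333) lie below all those within Penk+/+ (at least 0.392), and kappa distances overlap.

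Each member was then tested between genotypes with limma on log2(value + 1), with p-values adjusted over the 19127 genes with a mean of at least 10. Of the 141 members, 0 had an adjusted p below 0.05 (0% of all genes tested), with voom on the recovered reads likewise 0 (10 unadjusted). At an unadjusted p below 0.05 there were 10 members (7.09%), 9 lower and 1 higher in Penk-/- mice, against 9.63% of all genes tested. Lower in Penk-/- mice at this p were 5.33% of all genes. The unadjusted count was 22 without Penk-/- mouse 1 and 20 without Penk+/+ mouse 3. The median log2 fold change was -0.33 over the members, -0.31 over Ighv and -0.34 over Igkv, against 0.00512 over all genes, and it depended on single libraries, with 0.0285 without the 2 libraries with the most accessory gland RNA, 0.18 without Penk-/- mouse 2, -0.86 without Penk-/- mouse 1, -0.75 without Penk+/+ mouse 3 and -0.0289 without Penk+/+ mouse 4. A median standard error of 0.87 for the members, against 0.14 for all genes tested, stood beside these values.

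The smallest p belonged to Ighv1-53, at 214, 69.8, 53.8 and 106 normalized counts in Penk-/- mice 1 to 4 and 185, 249, 274 and 399.6 in Penk+/+ mice 1 to 4 (log2 fold change -1.46, standard error 0.40, unadjusted p = 0.00483, adjusted p = 0.351 with limma). Penk+/+ mouse 1 was below Penk-/- mouse 1, so that the groups overlapped. Igkv6-23 was at 89.9, 59.5, 27.6 and 95.02 normalized counts in Penk-/- mice 1 to 4 and 769, 247, 69.5 and 418 in Penk+/+ mice 1 to 4 (log2 fold change -2.14, standard error 0.67, unadjusted p = 0.0107, adjusted p = 0.4001 with limma), and 3 of 4 Penk+/+ mice were above all Penk-/- mice. Only Igkv3-12 did not overlap between genotypes among the members (0.709% of 141, against 5.63% of all genes tested). Its values were 77.8, 10.3, 44.3 and 66.3 normalized counts in Penk-/- mice 1 to 4 and 101, 108, 123 and 176 in Penk+/+ mice 1 to 4 (log2 fold change -1.62, standard error 0.54, unadjusted p = 0.0143, adjusted p = 0.417 with limma), every Penk-/- mouse being below every Penk+/+ mouse. The remaining lower members of the 10 were Ighv1-50 (log2 fold change -2.76), Ighv7-1 (-2.02), Ighv1-22 (-1.80), Igkv9-124 (-1.29), Ighv2-2 (-1.17) and Ighv14-3 (-0.92), and Ighv5-4 was the higher one (1.86), with adjusted p of 0.387 to 0.490 with limma. As shares of the heavy chain level, Ighv1-50 took 0.164, 0.152, 0.0292 and 0.1096% in Penk-/- mice 1 to 4 and 0.526, 0.5402, 0.415 and 1.27 in Penk+/+ mice 1 to 4, and Ighv5-4 1.11, 1.07, 0.906 and 0.905% in Penk-/- mice 1 to 4 and 0.105, 0.2701, 0.0922 and 0.2998 in Penk+/+ mice 1 to 4. The lowest of these shares rest on few reads, with 1312 to 10341 Ighv reads per library. The shares of Ighv1-50 and Ighv5-4 did not overlap between genotypes, nor did those of 3 other members (Ighv1-52, Igkv4-72 and Igkv13-84, all higher in Penk-/- mice), that is 5 of 139 Ighv and Igkv members (3.60%). Shares exist only for V segments, so that no value over all genes stands beside this count, which was made after the values were seen and was not tested. For a single member, random assignment of 4 mice against 4 separates the shares fully with a probability of at most 0.0286, the smallest two-sided p of the exact permutation test. These folds are on the log2(value + 1) scale, which understates the change of low segments.

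**Figure D5:**
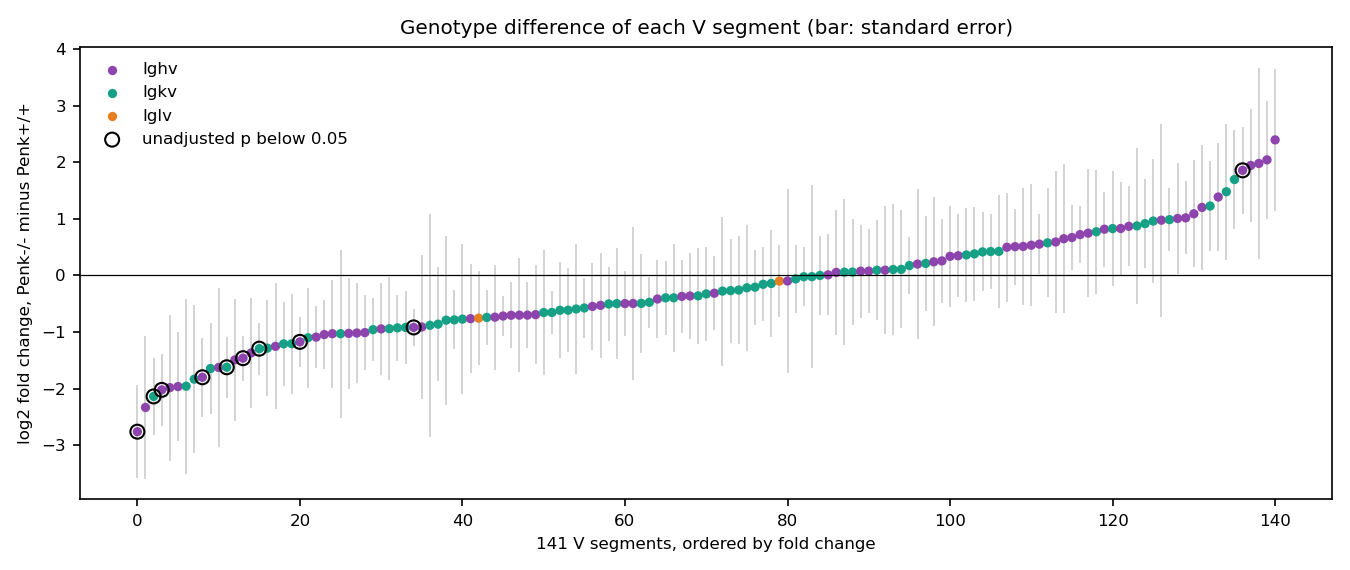
Log2 fold change of the 141 V segments, Penk-/- minus Penk+/+, ordered by size, with the standard error of limma as bars, coloured by locus. Circles mark the 10 segments with an unadjusted p below 0.05, and 0 segments passed the adjusted threshold.

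The spread between mice of a genotype was the main feature of the members. Their coefficient of variation had a median of 93.3% within the Penk-/- and 78.7% within the Penk+/+ mice, against 12.6 and 12.9% for all genes tested. The 11247 other genes with a mean no higher than that of the highest member had 18.3 and 18.8%, and the 10 constant genes 84.6 and 50.01%. As a share of the locus, which leaves out the spread of the summed level, the median coefficient of variation was 62.1% in Penk-/- and 77.6% in Penk+/+ mice over the 139 Ighv and Igkv members. The steadiest members over the 8 mice, besides Igkv1-110, were Ighv14-3 (coefficient of variation 48.7%), Ighv1-64 (48.99%), Igkv4-70 (51.7%) and Igkv3-2 (54.8%). Ighv1-64 was at 159.6, 78.99, 66.9 and 72.9 normalized counts in Penk-/- mice 1 to 4 and 219, 207, 84.8 and 118 in Penk+/+ mice 1 to 4. Over the 8 mice, the correlation of a member with Igha, both on the log2 scale, had a median of 0.658 and ran from -0.331 (Ighv1-49) to 0.963 (Igkv1-135), a description over points that share libraries. Of the 141 members, 53 were highest in Penk-/- mouse 1 and 40 in Penk+/+ mouse 4, the mice with the highest V sums.

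Some segments drew most of their counts from 1 mouse. At least 50% of the summed normalized count of a member came from a single library for 32 of 141 members, and at least 30% for 98. These parts were not corrected for the uneven summed level of all members. That level was 26060 normalized counts in Penk-/- mouse 1 and 19190 in Penk+/+ mouse 4, against 3691 to 16170 elsewhere. Igkv11-125 was the extreme, with 98.2% in Penk+/+ mouse 1. It was at 2.02, 0, 0 and 0 normalized counts in Penk-/- mice 1 to 4 and 224, 0, 2.04 and 0 in Penk+/+ mice 1 to 4. Its 180 reads in Penk+/+ mouse 1 brought it over the mean of 10. Ighv1-49 followed, with 0, 0, 77.05 and 8.84 normalized counts in Penk-/- mice 1 to 4 and 0, 0, 0 and 0 in Penk+/+ mice 1 to 4, and its 106 reads of Penk-/- mouse 3 brought it over the mean of 10. Both were thus close to absent outside 1 mouse. Ighv1-58 had 81.1% of its counts in Penk+/+ mouse 4, Igkv4-79 74.4% and Ighv1-39 73.9% in Penk+/+ mouse 1, Ighv5-12 73.4% in Penk+/+ mouse 4, and Igkv1-133 71.7% in Penk+/+ mouse 2. Igkv1-122 (71.9%), Igkv17-127 (67.1%) and Ighv14-4 (65.04%) were concentrated in Penk-/- mouse 1. Igkv1-133 was at 89.9, 0, 66.9 and 19.9 normalized counts in Penk-/- mice 1 to 4 and 28.6, 698, 0 and 70.3 in Penk+/+ mice 1 to 4, and was listed at 0 in 2 mice. The members with such concentration occurred in both genotypes. Reads were found in all 8 mice for 116 members and in 7 mice for 16, and 9 members were read in fewer.

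At the lower edge of the selection, the members just above the mean of 10 were Ighv14-4 (10.7), Ighv1-49 (10.7) and Igkv14-126 (11.7), and the segments just below were Igkv3-1 (9.12), Ighv1-63 (8.82) and Ighv1-56 (8.79). The 32 segments left out, 20 Ighv and 12 Igkv, had means of 1.33 to 9.12. Igkv3-1 had 62.2 normalized counts in Penk+/+ mouse 1 and at most 3.31 elsewhere, the same kind of use by 1 mouse as among the members.

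The other genes of the antibody pathway were read in the same fit, where 9.63% of all genes tested had an unadjusted p below 0.05. Of 10 constant genes tested (of 13 listed), 0 passed the adjusted threshold and 0 the unadjusted one, 6 being lower and 4 higher in Penk-/- mice, with a median log2 fold change of -0.24. Igkc, the kappa constant gene, was at 8882, 1448, 2058 and 3497 normalized counts in Penk-/- mice 1 to 4 and 5093, 5280.2, 1820.3 and 6479.8 in Penk+/+ mice 1 to 4, in the same order of mice within each genotype as the Igkv sums. Of 9 plasma cell genes tested (of 10), 0 passed the adjusted and 1 the unadjusted threshold. This was Prdm1, the transcription factor of plasma cell differentiation, which epithelium and T cells also express, at 198, 189, 162 and 172 normalized counts in Penk-/- mice 1 to 4 and 275, 324, 336 and 209 in Penk+/+ mice 1 to 4 (log2 fold change -0.64, standard error 0.16, unadjusted p = 0.00249, adjusted p = 0.339 with limma). All 4 Penk-/- mice were below all 4 Penk+/+ mice for Prdm1, and 5.63% of all genes tested did not overlap between genotypes. Jchain overlapped, at 11521, 1266, 2196 and 3844 normalized counts in Penk-/- mice 1 to 4 and 5629, 6566, 2248 and 7711 in Penk+/+ mice 1 to 4. Derl3, of the secretory pathway, was highest in the 2 libraries with the most accessory gland RNA, at 861 and 711 normalized counts against 29.6 to 177 in the other 6 mice, and the part of that tissue in its level was not tested. Sdc1 and Xbp1, which the epithelium also expresses, varied far less between mice than Jchain, and Mzb1 lay below the mean of 10.

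Among 12 B cell genes, 0 passed either threshold, and 11 were higher and 1 lower in Penk-/- mice, with a median log2 fold change of 0.35. Over all 19127 genes tested, 9780 were higher and 9347 lower in Penk-/- mice, and 9.63% had an unadjusted p below 0.05. For germinal centre and mutation genes (6 of 7 tested), 0 passed the adjusted and 1 the unadjusted threshold, S1pr2, a receptor of germinal centre B cells among others, at 256, 308, 311 and 384 normalized counts in Penk-/- mice 1 to 4 and 197, 230.1, 307 and 241 in Penk+/+ mice 1 to 4, with overlapping groups (log2 fold change 0.37, standard error 0.16, unadjusted p = 0.04501, adjusted p = 0.504 with limma). Rag1, Rag2 and Dntt, which act in V segment joining in the bone marrow, had no value among the named genes of these libraries and were not tested. Among 10 genes of IgA plasma cell homing, survival and transport, 0 passed the adjusted and 1 the unadjusted threshold. This was Pigr, at 236080, 194940, 189590 and 198840 normalized counts in Penk-/- mice 1 to 4 and 249120, 240840, 231370 and 273450 in Penk+/+ mice 1 to 4 (log2 fold change -0.28, standard error 0.12, unadjusted p = 0.0428, adjusted p = 0.501 with limma), while Ccl28, the chemokine that attracts IgA plasma cells, had a log2 fold change of -0.0975. Summed epithelium markers ranged from 467640 to 651310 normalized counts in the Penk-/- and from 594420 to 707000 in the Penk+/+ mice, with 7 of 8 genes lower in Penk-/- mice, and smooth muscle markers from 142690 to 244820 and from 150820 to 234970, with 2 of 6 lower. In both lists 0 genes passed either threshold. T cell markers (8 of 8 tested) were all lower in Penk-/- mice and had a median log2 fold change of -0.26, and 0 passed either threshold. The part of these cell types in the V segment values was not tested.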

How the data were processed

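Bulk RNA-seq was done on the colon of 4 Penk-/- and 4 Penk+/+ chimeras. Stranded poly-A libraries were sequenced from both ends by the authors, who ran FastQC, aligned reads with STAR 2.7.8a to GRCm39 (Ensembl release 107), counted them per gene and scaled them with DESeq2 1.30.0. The deposited values are thus a signal: reads of a gene over the size factor of its library. They were whole multiples of 1 step per library (100% within 0.01), which gave the reads behind each value, 33122556 to 50677005 per library. How reads that match several V segments were treated is not given in the sources used here.

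Of 26008 identifiers, 25776 were named with GENCODE M39. Genes with a mean of at least 10 (19127) were tested with limma 3.58.1 (R 4.3.3, log2(value + 1), mean-variance trend, Benjamini-Hochberg adjustment over all genes). The fit was tested on simulated data in which every gene had the median spread of all genes tested. V segments had a larger spread, so that the simulated data do not cover them. The deposited values are normalized and not counts, and edgeR, DESeq2 and TMM scaling were not run here. The recovered reads served for depth, intervals and voom. Shares are of the normalized counts of a locus. Single values were compared with exact permutation tests over the 70 assignments of 8 mice, and correlations with all permutations of the mice. Wilson intervals have a confidence level of 95%. V exons were read from GRCm39 and aligned globally with Biopython 1.88.

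The members and gene lists were chosen with earlier results of these data known. Named were the leading segments of each locus in any library, the 10 members with the highest mean, the 10 with the smallest p, the 10 most concentrated in 1 library, the 5 with the smallest coefficient of variation, the Iglv pair, the 3 segments on each side of the mean of 10, non-overlapping members and the listed genes. Alternatives were the pseudocount, the filter, the trend, quantile normalization, voom, a replicate block, other indices and leaving out libraries. No library was left out of the main tests.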

Additional observations from a re-analysis of the deposited data

Results flagged for a closer look

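Within groups of 4 mice, the gap between an extreme mouse and its neighbour was set against the range of the group (limit at the Dixon value for 4 samples) for the single values compared and for the shares of the 10 members with the highest mean. Of 38 groups, 3 passed, and chance gives about 1.9. Penk-/- mouse 1 stood apart in the share of its leading kappa segment, Igkv1-117 with 26.3% (gap over range 0.891). Igkv1-110 took 12.1% of the kappa level in Penk-/- mouse 2, with 6.98 to 7.08% in the other 3 Penk-/- mice (0.979). Ighv1-82 took 3.92% of the heavy chain level in Penk+/+ mouse 2, with 1.05 to 1.38% in the other 3 Penk+/+ mice (0.886).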

How the results depend on the processing

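In all 17 other fits of the genes, 0 V segments and 0 genes of the antibody lists had an adjusted p below 0.05, and the 10 segments with the smallest p kept their direction in all 167 refitted values. The count at an unadjusted p below 0.05 was 10 in the main test, 21 with a replicate block and 9 to 22 with 1 mouse left out (22 without Penk-/- mouse 1, 20 without Penk+/+ mouse 3). Deviations of same-numbered mice correlated at 0.145, -0.0444, -0.3205 and -0.162, and 1 of 8 libraries matched its own number best. Whether mice of the same number shared a batch was not tested. The difference in Ighv distance was -0.139 to -0.0921 with 1 mouse left out (exact p = 0.0571 without Penk+/+ mouse 3, otherwise 0.0286) and -0.142 without the 2 libraries with the most accessory gland RNA, where p cannot go below 0.1. The difference in the effective number of Ighv segments was 3.87 to 7.704 with 1 mouse left out, and reached an exact p of 0.0286 without Penk+/+ mouse 2. Differences that did not pass changed sign for the Iglv sum (-0.796 to 0.0996 on the log2 scale with 1 mouse left out, 0.319 without the 2 libraries), for the effective number of Igkv segments (-2.69 to 2.06 with 1 mouse left out, 0.821 for the number expected to be read at the depth of the shallowest library), and for the relation with B cell genes (r = 0.252 without 2 mice). The cause was not tested. Without the 2 libraries, the other differences were -0.0800 for the Ighv, -0.0857 for the Igkv and -0.0627 for the summed level of all members (log2 scale), -0.769 and 4.97 percentage points for the leading Ighv and Igkv share, 4.34 and -0.863 for the effective numbers, -0.00565 for the Igkv distance and 2.13 percentage points for the lambda share, and 15 segments had an unadjusted p below 0.05. The lambda difference was 0.687 to 1.72 with 1 mouse left out and 0.2093 with constant genes. Restricting rows to V genes by annotation left the same 141 members. For depth, Penk-/- mouse 2 had 1312 Ighv and 1712 Igkv reads, and low segments there rest on few reads.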

Other observations

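Ighd and Ighm followed another order of mice than the V sums. Ighd, which naive B cells express, was at 20.2, 149, 128 and 464 normalized counts in Penk-/- mice 1 to 4 and 49.8, 501, 121 and 22.3 in Penk+/+ mice 1 to 4, and Ighm at 319, 598, 794 and 1412 normalized counts in Penk-/- mice 1 to 4 and 322, 1086, 684 and 572 in Penk+/+ mice 1 to 4. Penk-/- mouse 4 and Penk+/+ mouse 2 were the highest of their genotype for both genes, and Penk-/- mouse 1, with the highest V sums, was the lowest of all 8 for both. Cr2 and Fcer2a, which mature follicular B cells express, were likewise highest in Penk-/- mouse 4 and Penk+/+ mouse 2, with 407 and 388 normalized counts of Cr2 against 15.4 to 173 in the other 6 mice. Igha was 21422 in Penk-/- mouse 1 and 7555 in Penk-/- mouse 4. Ighg1 was highest of all 8 in Penk-/- mouse 1, at 155.5 normalized counts. The IgG genes Ighg1, Ighg2b and Ighg2c stayed at 293 normalized counts or below in every mouse, and Ighe and Ighg3 had means of 2.32 and 7.98.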
